A study of Homo sapiens with 4 samples.

Results

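Retinoic acid is made from vitamin A in the cell that uses it, is carried by small binding proteins and is read by nuclear receptors. The 10 genes described here cover that route: ALDH1A1, ALDH1A2 and ALDH1A3 (synthesis), CRABP1 and CRABP2 (binding), RARA, RARB, RARG and RXRA (receptors) and CYP26B1 (degradation). They were chosen by symbol from the 25559 gene symbols counted in HGC-27 cells with and without RUNX3. Of the 10, 7 had enough counts to be tested among 12967 tested genes, RARB was counted but fell under the filter on low counts, and ALDH1A2 and CRABP1 had 0 counts in every library.

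HGC-27 is an established line of poorly differentiated gastric cancer cells taken from a lymph node metastasis. RNA-seq of polyadenylated RNA was done on 2 libraries labelled wt, which the study calls control cells. Another 2 were of cells in which the transcription factor RUNX3 had been disrupted (RUNX3KO). The RUNX3KO cells received Cas9 and a guide by lentivirus, were selected with puromycin and were cloned from single cells. The study's methods do not say whether the wt cells went through such steps. Effects of these steps therefore cannot be told apart from those of RUNX3 loss. No retinoid is named among the treatments, both genotypes were grown in medium with serum, and the labels and the study's methods name different media. The number of clones behind the RUNX3KO libraries, and whether the replicates were separate cultures, are not given in the sources used here, so p-values measure only the spread between these libraries.

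Vitamin A reaches the cell as retinol, which alcohol and short-chain dehydrogenases oxidize to retinaldehyde. The ALDH1A enzymes then oxidize retinaldehyde irreversibly to retinoic acid, and CYP26 enzymes hydroxylate retinoic acid and so clear it. Inside the cell CRABP2 carries retinoic acid to RAR proteins, which bind DNA as dimers with RXR proteins at paired copies of a short sequence in the control regions of their target genes, some of which encode parts of the route itself.

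Between 11731401 and 12110876 reads per library were counted on genes. Counts of the same genotype differed by slightly more than sampling noise (chi-square per degree of freedom of 1.22 over 13692 genes for wt and 1.18 over 13510 genes for RUNX3KO), which does not tell separate cultures from repeat libraries of one culture, and they were used as the separate samples that the labels give. RUNX3 had 351 and 308 counts in wt and 225 and 185 in RUNX3KO, a log2 fold change of -0.70 ± 0.0961 (SE) with an adjusted p of 1.43e-09. Its fold change without RUNX3KO replicate 2 was -0.55 (adjusted p = 0.0649). Disruption of a coding exon need not remove the transcript, and the study reports by immunoblot that its knockout cells lacked RUNX3 protein.

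Markers of gastric and gut epithelium were scarce in all 4 libraries. Of 18 such genes, 8 had 0 counts everywhere, among them KRT19, TFF1, MUC5AC and CLDN18, EPCAM had at most 1 count, and the summed level ranged from 20.3 to 21.3 CPM (counts scaled to a common library total) in wt and from 23.2 to 25.5 CPM in RUNX3KO. Of the 4 tested, KRT8 (19 and 11 counts in wt, 72 and 81 in RUNX3KO, log2 fold change 2.33, adjusted p = 1.90e-13) and CDH1 (0.77, adjusted p = 0.0238) were higher, CDX2 was lower (-0.39, adjusted p = 0.0212) and MUC1, with 85 to 100 counts, was not called. Of 14 refits, the KRT8 call held in all, that of CDH1 in 9 and that of CDX2 in 10, and both were lost with the DESeq2 Wald test (adjusted p = 0.273 and 0.248), without RUNX3KO replicate 1 (0.135 and 0.149) and without RUNX3KO replicate 2 (0.172 and 0.0797). Of 8 mesenchymal markers, 7 were tested, 6 were lower in RUNX3KO and none was higher, with summed levels of 5420 to 5461 CPM in wt and 3280 to 3350 CPM in RUNX3KO, most of it VIM. FN1 (-3.01, adjusted p = 9.22e-20) and SNAI2 (-1.94, adjusted p = 2.89e-26) were lower. Among 12 blood, endothelial and fibroblast markers, CD3E, PECAM1 and CDH5 were at 0 and PTPRC had at most 5 counts, whereas the fibroblast markers DCN, LUM, PDGFRA and PDGFRB were present and all 4 were lower in RUNX3KO (PDGFRA by a log2 fold change of -2.33 and PDGFRB of -1.25), with list sums of 345 to 347 CPM in wt and 241 to 249 CPM in RUNX3KO. These markers moved with genotype as the retinoic acid genes did, and their part in the results was not tested. In bulk RNA, fewer cells of a type and less RNA per cell cannot be told apart.

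RUNX3KO cells held more ALDH1A1 and ALDH1A3 RNA, for enzymes that make retinoic acid, and less CYP26B1 RNA, for an enzyme that clears it. CYP26A1, which encodes a related clearing enzyme and is not among the 10 genes, was higher. The CYP26A1 call was lost only with the DESeq2 Wald test, where the log2 fold change was 1.39 (adjusted p = 0.0517). ALDH1A1 rose 3.60-fold, ALDH1A3 rose 2.86-fold and CYP26B1 fell 4.10-fold, while CRABP2, RARG and RXRA each fell by 15.8% to 17.3%. RARA fell by 11.9%, at the edge of the test. Of the 7 tested genes, 5 were called lower (24.4% of all tested genes were) and 2 were called higher (24.5% of all tested genes were) by edgeR's quasi-likelihood test at an adjusted p under 0.05. The background is high, since 48.9% of all tested genes were called in one direction or the other, so a call alone says little and the sizes are given for each gene. By the study's own criteria, a fold change of at least 2 with an unadjusted p of at most 0.05, CYP26B1 was lower (4.01% of all tested genes passed in that direction) and ALDH1A1 and ALDH1A3 were higher (2.11% of all tested genes passed in that direction). CYP26B1 is also among the genes that the study lists as targets of active RUNX3 sites holding a CDX2 motif. That list carries expression fold changes and p-values without naming their samples, so its fall here is not taken as independent evidence of the direction of that list.

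**Figure D1:**
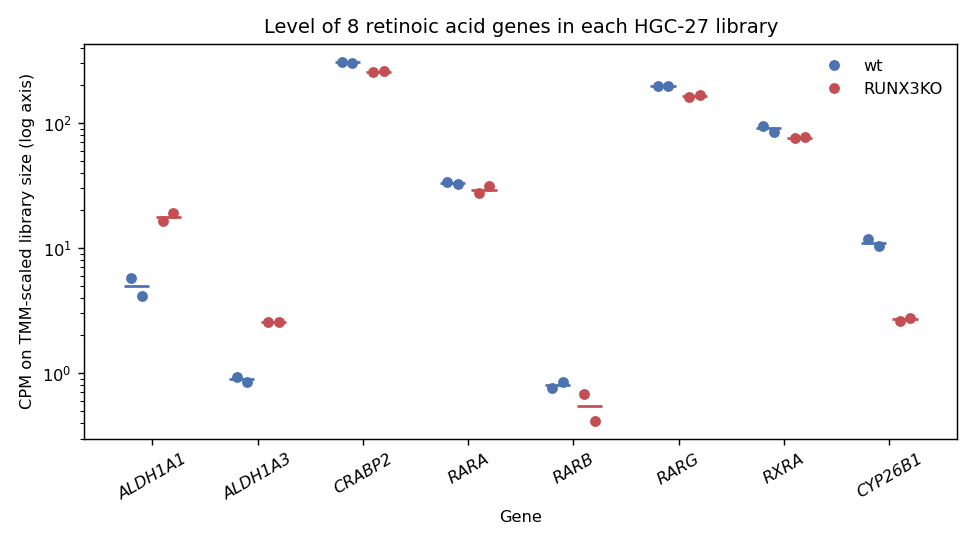
Level of the 8 detected retinoic acid genes in each HGC-27 library, as CPM on the TMM-scaled library size (log axis). Each point is 1 library, 2 wt and 2 RUNX3KO per gene. The points of ALDH1A1 and ALDH1A3 sit higher in RUNX3KO and those of CYP26B1 lower, by more than the gap between replicates. The gaps of CRABP2, RARA, RARG and RXRA are small on this scale.

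ALDH1A1 encodes a cytosolic enzyme that oxidizes retinaldehyde to retinoic acid and is widely used as a marker of stem-like cells in normal and tumor tissue. The gene occupies bases 75515587 to 75695358 of chromosome 9 (minus strand; all positions are in GRCh37 unless another build is named). It had 68 and 49 counts in the wt libraries and 196 and 230 in the RUNX3KO libraries. Both RUNX3KO values lay above both wt values, with the lower of the RUNX3KO counts well beyond the higher of the wt counts. Its mean level was 4.96 ± 1.14 CPM (SD, n = 2) in wt and 17.9 ± 1.79 CPM in RUNX3KO, a log2 fold change of 1.85 ± 0.142 (SE) with an adjusted p of 1.64e-20. By size of fold change it ranked 95 among the 6438 tested genes that were higher in RUNX3KO, although its level was low, at the 28.9 percentile of all tested genes.

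ALDH1A3 encodes a related enzyme with the same substrate, best known from the developing eye and nose. The gene occupies bases 101417919 to 101456831 of chromosome 15 (plus strand). It had 11 and 10 counts in wt and 30 and 31 in RUNX3KO, so the groups did not overlap although the counts were small. Its level went from 0.890 ± 0.0596 CPM to 2.56 ± 0.0260 CPM (SD, n = 2), with a log2 fold change of 1.51 ± 0.333 (SE) with an adjusted p of 7.13e-05. This SE is larger than that of ALDH1A1, whose counts were higher. The annotation places an antisense RNA, ALDH1A3-AS1, over 1715 of its exonic bases. The library kit marks strand, but the strand setting used for counting is not given in the sources used here, so reads of that RNA could not be separated from those of ALDH1A3.

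ALDH1A2, the main retinoic acid-making enzyme of the early embryo, had 0 counts in all 4 libraries. A count of 0 allows up to 3 counts per library, which is 0.248 to 0.256 CPM at these depths. ALDH1A1 therefore supplied most of the ALDH1A RNA. Per kilobase of the canonical transcript (RPKM), ALDH1A1 averaged 2.36 in wt and 8.53 in RUNX3KO, and ALDH1A3 0.256 and 0.738. Summed over the 3 genes, the level was 3.02 and 2.23 RPKM in the wt libraries and 8.66 and 9.87 RPKM in the RUNX3KO libraries.

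The tested genes around both synthesis genes were more often higher than lower. The 40 tested neighbours of ALDH1A1, which span 40.8 Mb, had 22 called higher and 6 called lower. Their median log2 fold change was 0.17, and 2 of the 40 moved at least as far as ALDH1A1 itself. Chromosome 9 as a whole had a median of 0.13. ALDH1A3 lies near the end of chromosome 15, where the median of the 28 closest tested genes was 0.63 and 22 were called higher and 3 lower. None of those 28 moved as far as ALDH1A3, whose log2 fold change was 0.88 above their median. Over the 384 tested genes of chromosome 15 the median was 0.29, against -0.0021 over all tested genes. The part of these regional shifts in the rise of ALDH1A1 and ALDH1A3 was not tested.

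CYP26B1 encodes a cytochrome P450 that hydroxylates retinoic acid, and in many tissues its RNA is itself raised by retinoic acid. Its gene spans bases 72356367 to 72374991 of chromosome 2 (minus strand). It had 139 and 122 counts in wt and 31 and 33 in RUNX3KO. The RUNX3KO libraries were close to each other and far under both wt libraries. Its level went from 11.1 ± 1.02 CPM to 2.69 ± 0.0838 CPM (SD, n = 2), a log2 fold change of -2.04 ± 0.182 (SE) with an adjusted p of 3.90e-17. It ranked 176 by size among the 6529 tested genes that were lower in RUNX3KO. The median of its 40 tested neighbours was -0.11, and none moved as far.

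The level of CYP26B1 beside that of the ALDH1A genes differed between the genotypes. Per length, CYP26B1 came to 85.7% and 102% of the summed ALDH1A level in the wt libraries and to 6.66% and 6.10% in the RUNX3KO libraries. With CYP26A1, added to CYP26B1, the values were 100.3% and 122% in wt and 21.0% and 16.9% in RUNX3KO. These are ratios of RNA, and neither enzyme activity nor retinoic acid was measured.

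**Figure D2:**
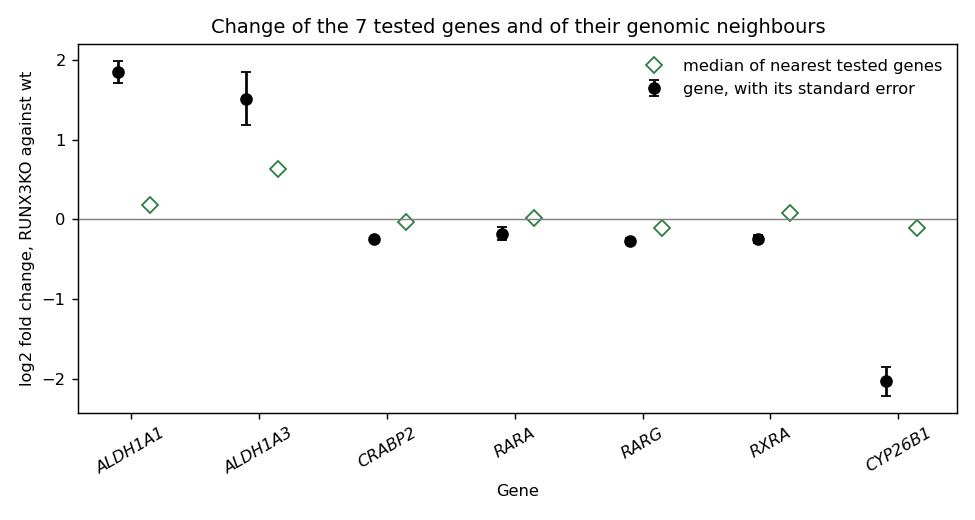
Log2 fold change (RUNX3KO against wt) of each of the 7 tested retinoic acid genes (black, with the standard error of the fit), beside the median log2 fold change of the tested genes nearest to it on its chromosome (green diamonds). ALDH1A1 at 1.85, ALDH1A3 at 1.51 and CYP26B1 at -2.04 lie far from 0, and of the neighbour medians only that of ALDH1A3, 0.63, is above 0.2.

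The start regions of the 3 genes that passed the study's criteria are shown for their base composition, since ALDH1A1 and ALDH1A3 rose together while CYP26B1 fell. Each run holds 250 bases before and 50 bases after the annotated start, 5′ to 3′ on the strand of the gene, with each CG dinucleotide in capitals. The sequences are from RefSeq on GRCh38.p14, and each had 1 exact match in GRCh37, whose coordinates are given: chr9:75567920-75568219 (minus) for ALDH1A1, chr15:101419786-101420085 (plus) for ALDH1A3 and chr2:72374942-72375241 (minus) for CYP26B1.
ALDH1A1: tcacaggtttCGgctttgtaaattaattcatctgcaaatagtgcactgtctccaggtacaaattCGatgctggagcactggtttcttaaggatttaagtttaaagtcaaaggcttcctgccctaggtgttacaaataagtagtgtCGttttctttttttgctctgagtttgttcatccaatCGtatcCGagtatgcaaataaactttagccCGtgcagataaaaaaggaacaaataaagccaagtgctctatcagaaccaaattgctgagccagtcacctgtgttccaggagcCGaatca
ALDH1A3: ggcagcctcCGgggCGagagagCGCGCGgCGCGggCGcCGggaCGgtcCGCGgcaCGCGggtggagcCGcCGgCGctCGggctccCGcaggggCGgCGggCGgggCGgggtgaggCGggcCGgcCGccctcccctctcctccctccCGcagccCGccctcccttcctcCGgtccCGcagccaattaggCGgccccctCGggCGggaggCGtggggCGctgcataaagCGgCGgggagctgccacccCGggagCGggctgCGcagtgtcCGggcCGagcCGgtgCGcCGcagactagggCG
CYP26B1: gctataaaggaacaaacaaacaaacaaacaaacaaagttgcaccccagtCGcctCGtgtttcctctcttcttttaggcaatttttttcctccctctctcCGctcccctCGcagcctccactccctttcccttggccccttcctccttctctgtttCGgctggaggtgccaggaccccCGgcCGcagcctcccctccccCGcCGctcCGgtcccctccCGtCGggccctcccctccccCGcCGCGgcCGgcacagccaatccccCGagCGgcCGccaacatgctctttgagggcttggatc
The ALDH1A1 window was poor in G and C (40.33%) with 7 CG dinucleotides, and the ALDH1A3 window was rich (81.67%) with 46. The CYP26B1 window lay between them, with 62.67% and 19 CG dinucleotides. Over all 35116 RefSeq windows of this length the medians were 58.67% and 14. The genes that rose thus had start regions on either side of the typical composition.

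The letters TGTGGT and TGCGGT, which RUNX proteins are known to bind, were searched on both strands. Neither was present in the windows of ALDH1A1, ALDH1A3, CYP26B1 or CRABP2. Of the 17 windows of the 10 genes (several have more than 1 start), 3 held a match: RARG from base 26 to base 31 after its start, 1 window of RXRA and 1 of RARB. Over all windows the share with a match was 19.6%. A match of letters is a description and not a binding site, and the search says nothing of sequence outside these windows.

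CRABP2 was the most abundant of the 10 genes. Its protein brings retinoic acid to RAR in the nucleus. The gene occupies bases 156669398 to 156675608 of chromosome 1 (minus strand). It had 3638 and 3596 counts in wt and 3019 and 3119 in RUNX3KO, with both RUNX3KO values under both wt values. The level went from 306 ± 2.43 CPM to 258 ± 2.58 CPM (SD, n = 2), and the log2 fold change was -0.25 ± 0.0306 (SE) with an adjusted p of 2.47e-11. The change is small, but replicates differed by far less than the genotypes did. Its level stood at the 95.3 percentile of all tested genes.

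CRABP1, the paralog often linked to the breakdown of retinoic acid, had 0 counts in every library. CRABP2 was thus the CRABP transcript detected at this depth, at 315 RPKM in wt and 264 RPKM in RUNX3KO. The other known carrier of retinoic acid, FABP5, which brings it to PPARD, had 128 and 139 counts in wt and 221 and 216 in RUNX3KO. FABP5 rose by 0.70 ± 0.113 on the log2 scale (SE) with an adjusted p of 1.46e-07, the opposite direction to CRABP2. FABP5 has near-identical processed copies in the genome, so its counts are uncertain.

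RARG supplied most of the retinoic acid receptor RNA of these cells. The gene occupies bases 53604351 to 53626764 of chromosome 12 (minus strand), and its receptor is known from epithelia and cartilage. It had 2338 and 2335 counts in wt and 1905 and 1997 in RUNX3KO. The wt libraries nearly coincided, and both RUNX3KO libraries lay under them. The level went from 198 ± 0.121 CPM to 164 ± 3.33 CPM (SD, n = 2), a log2 fold change of -0.27 ± 0.0358 (SE) with an adjusted p of 2.69e-10. The median of its 40 tested neighbours was -0.11, and -0.16 remained after it was subtracted.

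RXRA encodes the shared partner of RAR and of several other nuclear receptors, and occupies bases 137208944 to 137332431 of chromosome 9 (plus strand). It had 1127 and 1009 counts in wt and 889 and 926 in RUNX3KO. The groups did not overlap, although the wt libraries lay further apart than the RUNX3KO libraries. Its log2 fold change was -0.25 ± 0.0508 (SE) with an adjusted p of 2.11e-05, from 90.5 ± 7.04 CPM to 76.2 ± 1.20 CPM (SD, n = 2). The call was lost with either RUNX3KO library left out. The log2 fold change of RXRA was then -0.23 without RUNX3KO replicate 1 and -0.26 without RUNX3KO replicate 2. RXRB, which encodes another RXR, had 487 and 507 counts in wt and 503 and 524 in RUNX3KO, a log2 fold change of 0.03 ± 0.0678 (SE) with an adjusted p of 0.714. RXRG had 0 counts in every library.

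RARA encodes the receptor whose fusion to PML drives acute promyelocytic leukemia. RARA spans bases 38465432 to 38513895 of chromosome 17 (plus strand), and shares 556 exonic bases with the antisense RNA RARA-AS1, which strand-blind counting could not separate. It had 400 and 386 counts in wt and 324 and 375 in RUNX3KO, and the higher RUNX3KO value came near the lower wt value. The log2 fold change was -0.18 ± 0.0795 (SE) with an adjusted p of 0.0492, from 33.3 ± 0.829 CPM to 29.3 ± 2.65 CPM (SD, n = 2). The call held in 6 of 14 alternatives, and without RUNX3KO replicate 1 the log2 fold change was -0.09 (adjusted p = 0.449).

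RARB, in many cells a direct target of the retinoic acid receptors and often silenced in carcinomas, was barely detected. It spans bases 24729378 to 25639423 of chromosome 3 (plus strand). It had 9 and 10 counts in wt and 8 and 5 in RUNX3KO. The groups did not overlap, but counts this low cannot show a change of that size. It was under the filter on low counts, and in the fit of 17650 genes without that filter its log2 fold change was -0.55 ± 0.407 (SE) with an adjusted p of 0.460.

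One start of RARB holds the paired element by which retinoic acid receptors are known to act, and it is shown because no other window of the 10 genes held one. The window is chr3:25469504-25469803 (plus, GRCh37), from RefSeq on GRCh38.p14 with 1 exact match in GRCh37. Capitals mark the half-sites of the pair, which are 5 bases apart (a DR5 element). A further half-site of the window, GGGTCA, is left in lower case.
RARB: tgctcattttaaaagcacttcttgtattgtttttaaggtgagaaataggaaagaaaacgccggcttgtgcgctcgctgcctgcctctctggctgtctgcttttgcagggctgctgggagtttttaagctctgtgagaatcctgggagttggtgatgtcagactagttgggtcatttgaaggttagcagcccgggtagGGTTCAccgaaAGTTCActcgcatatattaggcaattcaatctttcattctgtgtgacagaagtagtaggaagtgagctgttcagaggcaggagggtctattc
The element lies from base 53 to base 37 before the start, at chr3:25469701-25469717. Half-sites were searched on both strands in the form AGGTCA, its relative AGTTCA, the form GGGTCA and its relative GGTTCA. A pair of them in the same direction with 5 bases between was found in 31 of the 35116 RefSeq windows (0.0883%), which belong to 29 genes. No window of the 10 genes held a pair with 1 or 2 bases between, and single half-sites were present in 7 of their 17 windows and in 38.6% of all windows.

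Only 1 other gene of the pathway lists held such a pair, CYP26A1, the paralog of CYP26B1. Its pair, on the strand opposite to the gene and 90 to 74 bases before the start, is set beside that of RARB, with the half-sites in capitals.
RARB: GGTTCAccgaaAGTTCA
CYP26A1: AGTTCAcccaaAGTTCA
CYP26A1 had 11 and 11 counts in wt and 31 and 27 in RUNX3KO, so it rose while CYP26B1 fell. Its log2 fold change was 1.38 ± 0.333 (SE) with an adjusted p of 3.08e-04. Per length, CYP26A1 averaged 0.440 RPKM in wt and 1.15 RPKM in RUNX3KO, and CYP26B1 2.43 and 0.589 RPKM, so the order of the CYP26 transcripts turned around. CYP26C1 had at most 1 count. CYP26A1 was named after its values were seen. Of the 29 genes with a pair, 15 were in the count files and 7 were tested. Among these 7, CYP26A1 and PANK2 were called higher, none was called lower, and the median log2 fold change was 0.01.

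**Figure D3:**
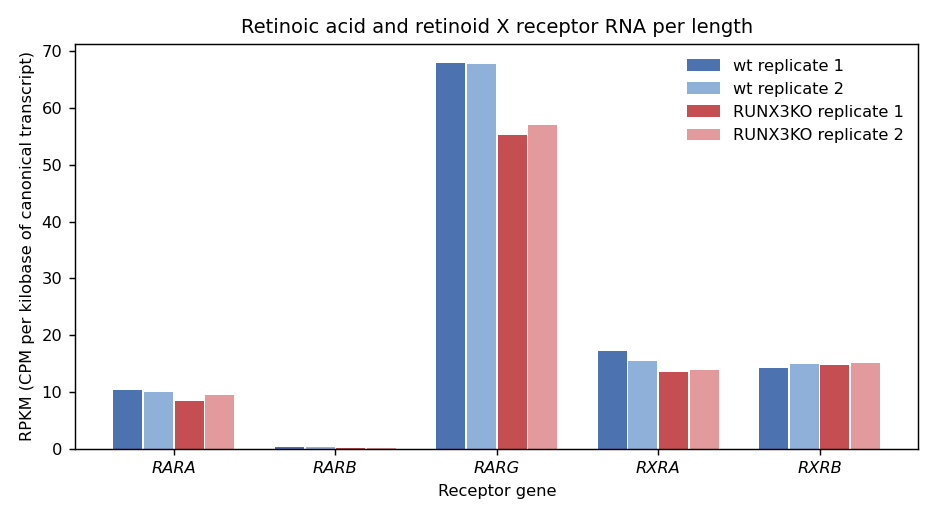
Level per kilobase of canonical transcript (RPKM, axis from 0) of RARA, RARB, RARG, RXRA and RXRB in each library, with 2 wt and 2 RUNX3KO bars per gene. RARG stands above the others in every library, at 67.9 RPKM on average in wt and 56.1 in RUNX3KO, and RARB lies near 0.

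Per length, the make-up of the RAR group hardly moved although its sum did. RARG made up 86.5% and 86.9% of RAR RNA per length in the wt libraries and 86.6% and 85.5% in the RUNX3KO libraries. RARA made up 12.8% to 14.3% in all 4 libraries and RARB at most 0.346%. The sum was 78.5 and 78.1 RPKM in wt and 63.9 and 66.6 RPKM in RUNX3KO. The RAR sum was 24.3% to 25.0% of the CRABP2 level in all 4 libraries, both per length, so carrier and receptor RNA were lower to a like degree in RUNX3KO.

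The order of the 8 detected genes per length in wt was CRABP2 (315 RPKM), RARG (67.9), RXRA (16.3), RARA (10.2), CYP26B1 (2.43), ALDH1A1 (2.36), RARB (0.257) and ALDH1A3 (0.256). CYP26B1 and ALDH1A1 overlapped between libraries in wt, as did RARB and ALDH1A3. In RUNX3KO the order was CRABP2 (264 RPKM), RARG (56.1), RXRA (13.8), RARA (8.95), ALDH1A1 (8.53), ALDH1A3 (0.738), CYP26B1 (0.589) and RARB (0.175), and RARA and ALDH1A1 overlapped. ALDH1A1 thus moved from a level like that of CYP26B1 to one like that of RARA. With the union of all annotated exons as length, RARB fell below ALDH1A3 in wt (0.0852 against 0.167 RPKM), and ALDH1A1 (6.29) stood just above RARA (6.18) and CYP26B1 (0.555) above ALDH1A3 (0.480) in RUNX3KO.

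The wider pathway was described with 7 further lists, whose genes other than the 10 numbered 106. Of these, 64 were tested, 22 were lower and 17 higher in RUNX3KO, and 25 were not called, which is 60.9% called against 48.9% of all tested genes. The median log2 fold change of the 64 was -0.07, against -0.0021 over all tested genes. Fewer of the 64 were called with either RUNX3KO library left out, which leaves that genotype without a replicate, and the cause was not tested.

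**Figure D4:**
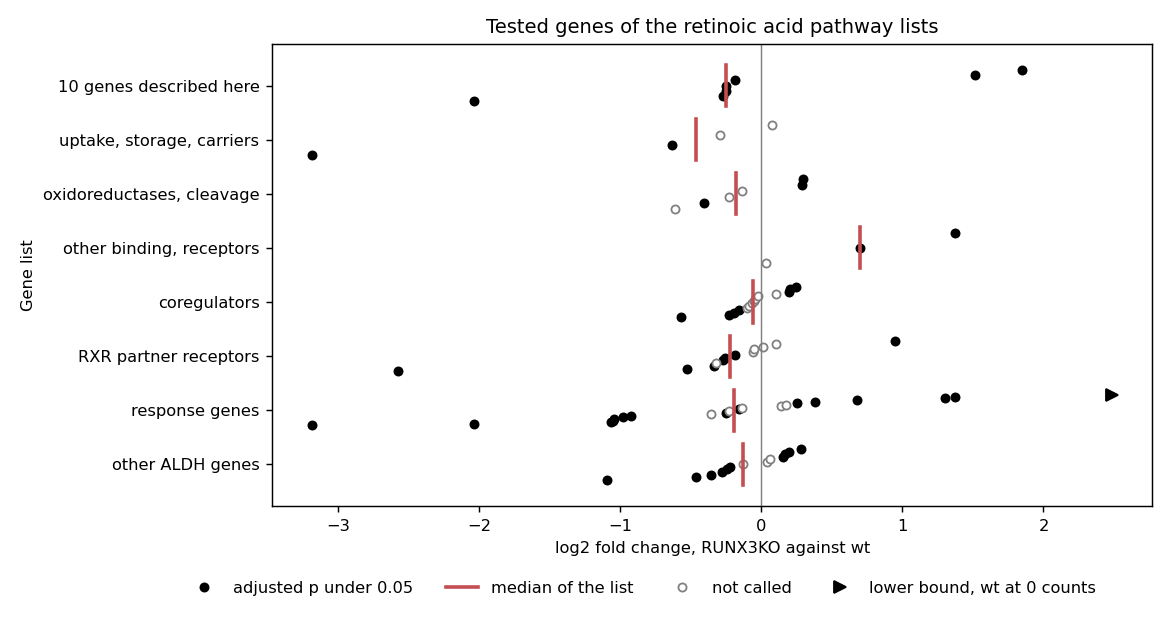
Log2 fold change (RUNX3KO against wt) of each tested gene in the 10 described genes and in 7 lists of the retinoic acid pathway. Each point is a gene, filled where the adjusted p was under 0.05, the red line is the median of the list, and the triangle is the lower bound of RARRES2, which had 0 counts in wt. All lists other than the binding and receptor genes have a median below 0, and in those lists points lie on both sides of 0.

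Of 12 uptake, storage and carrier genes, 5 had 0 counts in every library, among them RBP4 and LRAT, and 4 were tested, with 2 lower, none higher and a median of -0.46. The lipoprotein receptor SCARB1 had the most counts of the list, 1699 and 1518 in wt and 1697 and 1726 in RUNX3KO, and was not called (0.08 ± 0.0411, adjusted p = 0.118). LRP2, the endocytic receptor megalin, had 82 and 99 counts in wt and 59 and 59 in RUNX3KO, a log2 fold change of -0.63 ± 0.173 (SE) with an adjusted p of 0.00143. That call held in 10 of 14 refits and was lost without wt replicate 2 (adjusted p = 0.0554), RUNX3KO replicate 1 (0.101) or RUNX3KO replicate 2 (0.116). STRA6, the membrane receptor for the retinol carrier of plasma and a known retinoic acid response gene, had 39 and 35 counts in wt and 3 and 5 in RUNX3KO. Its log2 fold change, -3.18 ± 0.399 (SE) with an adjusted p of 5.96e-11, lay on the same side as that of CYP26B1, and the median of its 40 tested neighbours on chromosome 15 was 0.26, in the other direction. STRA6 was named after its values were seen.

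Among 20 retinol and retinaldehyde oxidoreductases and carotenoid-cleaving enzymes, 8 had 0 counts in every library and 6 were tested, with 1 lower, 2 higher and a median of -0.18. RDH10, which makes retinaldehyde for the ALDH1A enzymes, had 366 and 364 counts in wt and 453 and 450 in RUNX3KO, a rise of 0.29 ± 0.0751 on the log2 scale (SE) with an adjusted p of 6.26e-04. RDH13 rose by a like amount (0.29 ± 0.107, adjusted p = 0.0201). The RDH13 call held in 9 of 14 refits, and without wt replicate 1 its log2 fold change was 0.18. The RDH10 and RDH13 calls were both lost with the DESeq2 Wald test (adjusted p = 0.0543 and 0.241), without RUNX3KO replicate 1 (0.0576 and 0.163) and without RUNX3KO replicate 2 (0.0509 and 0.231). RDH11, which can reduce retinaldehyde, had 1356 and 1403 counts in wt and 1057 and 1042 in RUNX3KO, with a log2 fold change of -0.41 ± 0.0452 (SE) with an adjusted p of 6.28e-13. On chromosome 14 the median of its 40 tested neighbours was -0.23.

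The 14 nuclear receptor coregulators, which RAR and RXR recruit to open or close chromatin, were all tested, and 4 were lower, 3 higher and 7 not called, with a median of -0.06. The coactivators EP300 (log2 fold change -0.57 ± 0.0388, adjusted p = 1.65e-23) and NCOA1 (-0.23 ± 0.0741, adjusted p = 0.00821) were lower. Of the corepressor genes, NCOR1 (0.24 ± 0.0327, adjusted p = 6.87e-10) and TBL1X (0.20 ± 0.0672, adjusted p = 0.00813) were higher, with tested neighbours at medians of 0.10 and 0.11, whose subtraction left 0.14 and 0.10. The corepressor NRIP1, named after its values were seen, was lower (-0.16 ± 0.0662, adjusted p = 0.0412), so corepressor genes were called in both directions. The EP300 and NCOR1 calls held in all 14 refits, those of NCOA1 in 10, of TBL1X in 9 and of NRIP1 in 8, and the last 3 were each lost without RUNX3KO replicate 1 and without RUNX3KO replicate 2 (adjusted p of 0.0813 to 0.335). Without wt replicate 1 the log2 fold change of TBL1X was 0.12. EP300 lies on chromosome 22, where the median of its 40 tested neighbours was -0.51, close to its own value.

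Of 18 receptors that pair with RXR, RARA, RARB and RARG included, 12 were tested, 6 were lower, 1 was higher and the median was -0.22. THRB, a thyroid hormone receptor, had 134 and 157 counts in wt and 20 and 29 in RUNX3KO, a log2 fold change of -2.58 ± 0.191 (SE) with an adjusted p of 2.00e-21. VDR, the vitamin D receptor, had 339 and 331 counts in wt and 242 and 227 in RUNX3KO (-0.53 ± 0.0896, adjusted p = 4.47e-07). NR2F2, an orphan receptor known to answer to retinoic acid, had 308 and 289 counts in wt and 569 and 592 in RUNX3KO (0.95 ± 0.0746, adjusted p = 5.86e-20). NR2F2 lies on chromosome 15 among 39 tested neighbours with a median of 0.64, as ALDH1A3 does.

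Genes known to respond to retinoic acid did not move one way. Of 32 listed, CYP26B1, CRABP2 and RARB included, 20 were tested, 9 were lower, 6 higher and 5 not called, with a median of -0.19, also with RARRES2 at its bound. BHLHE40, a transcriptional repressor, had 290 and 267 counts in wt and 129 and 140 in RUNX3KO (log2 fold change -1.06 ± 0.107, adjusted p = 9.65e-15). RAI14 (0.68 ± 0.0478, adjusted p = 9.39e-23) and the homeobox gene MEIS2 (0.38 ± 0.0657, adjusted p = 5.74e-07) were higher. Their tested neighbours had medians of 0.30 and 0.19, and 0.38 and 0.19 remained after subtraction. The MEIS2 call was lost without RUNX3KO replicate 2 (adjusted p = 0.0698). RARRES2, which encodes the secreted protein chemerin, had 0 counts in both wt libraries and 16 and 18 in RUNX3KO, at least 5.61-fold higher against a floor of 3 counts per library. RARRES2 was named after its values were seen. Thus among the classical response genes CYP26B1 and STRA6 were lower, CYP26A1 and RARRES2 were higher, and DHRS3 was not called (-0.23 ± 0.383, adjusted p = 0.665).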

How the data were processed

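The authors deposited, for each of the 4 libraries, raw counts of reads per gene symbol, not normalized. Per the labels, the submitters' processing notes name hg19, HISAT2 2.1.0 and HTSeq, whereas the study's methods name STAR and featureCounts. The strand setting is not given in the sources used here. The 5 rows without a gene (25.9% to 28.1% of counts) were left out.

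The analysis used edgeR 4.0.16 in R 4.3.3 (filterByExpr at its minimum count of 10 and total of 15, TMM scaling, glmQLFit and glmQLFTest, genotype as the only term, Benjamini-Hochberg adjustment over 12967 genes). Each SE is the absolute log2 fold change over the root of its F statistic. Exact permutation of 2 against 2 libraries cannot go below p = 0.333, so none was used. CPM used TMM-scaled library sizes, and RPKM added transcript lengths of GENCODE on GRCh37, where 21479 of 25559 symbols matched (2112 through an older symbol). Neighbours were the 20 nearest tested genes on each side.

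The members and lists were chosen with earlier results of these data known. All 10 genes were named. From each list, up to 2 genes with the largest fall and 2 with the largest rise were named among those with an adjusted p under 0.05 and a mean of at least 50 counts. KRT8, CDH1, MUC1, SCARB1, RXRB, RXRG, DHRS3, CYP26A1, CYP26C1, STRA6, NRIP1, PANK2, RARRES2 and genes named only as absent or as examples of markers lie outside this rule and were chosen after their values were seen.

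Alternatives were other scalings, DESeq2 1.42.0, limma-voom (limma 3.58.1), edgeR's exact test and its legacy = FALSE method, other filters, a replicate block, subtraction of the neighbour median and each library left out. The steps were tested on simulated data.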

Additional observations from a re-analysis of the deposited data

How the results depend on the processing

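ALDH1A1 (log2 fold change 1.63 to 2.104), ALDH1A3 (1.45 to 1.58), CRABP2 (-0.27 to -0.24), RARG (-0.29 to -0.25) and CYP26B1 (-2.13 to -1.94) kept their direction and an adjusted p under 0.05 in all 14 refits with another scaling, test, filter, block or library left out. RARA lost its call with DESeq2 size factors (-0.18, adjusted p = 0.0522), the DESeq2 Wald test (-0.18, adjusted p = 0.334), no filter (-0.18, adjusted p = 0.160) and each library left out (-0.28 to -0.092). RXRA ranged from -0.33 to -0.17 (call lost without either RUNX3KO library) and RUNX3 from -0.86 to -0.55 (call lost without RUNX3KO replicate 2) with a library left out. Members called lower numbered 3 to 4, and the other pathway genes 9 to 22 lower and 9 to 19 higher, with a library left out, and 11 pathway genes were higher with the DESeq2 Wald test. The cause was not tested. With 1 library left in a group, it is assumed to vary like the other group.

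Same-numbered libraries did not deviate together (r = 0.02 over 12967 genes, 2 pairs), so the numbers only name libraries. With a replicate block RARA lost its call (-0.18, adjusted p = 0.0525), and no other of the 7 genes did.

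After subtraction of the neighbour median, a value with no test and so with no number of calls, the values were 1.67 for ALDH1A1, 0.88 for ALDH1A3, -0.21 for CRABP2, -0.16 for RARG and -0.33 for RXRA. Depth limits ALDH1A3, RARB and CYP26A1, which rest on at most 31 counts per library.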

Other observations

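Aldehyde dehydrogenases outside the ALDH1A group were counted in every case and were called in both directions. Of 16, 13 were tested, 6 were lower, 4 higher and 3 not called, with a median log2 fold change of -0.13. ALDH2, the mitochondrial enzyme that oxidizes acetaldehyde, had 1706 and 1744 counts in wt and 801 and 831 in RUNX3KO, a log2 fold change of -1.09 ± 0.0454 (SE) with an adjusted p of 7.27e-38, opposite in direction to ALDH1A1. The median of its 40 tested neighbours was 0.07. ALDH3A1 was lower (-0.46 ± 0.0956, adjusted p = 2.69e-05), and ALDH5A1 (0.28 ± 0.0664, adjusted p = 1.92e-04) and ALDH18A1 (0.20 ± 0.0321, adjusted p = 1.44e-07) were higher. With either RUNX3KO library left out, fewer genes of the list were called, and the ALDH5A1 and ALDH18A1 calls were lost. Without RUNX3KO replicate 1 and replicate 2, their log2 fold changes were 0.31 and 0.26 for ALDH5A1 and 0.21 and 0.19 for ALDH18A1. ALDH2 and ALDH3A1 were called in all 14 refits. With all libraries in the fit, none of the tested enzymes outside the ALDH1A group rose by more than 0.28 on the log2 scale.

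The genes whose levels over the 4 libraries were most like those of CYP26B1 were EDA, SEL1L3 and ZNF536, with root mean square differences in log2 CPM (pseudocount 0.5) of 0.110, 0.173 and 0.194. EDA had 142 and 114 counts in wt and 27 and 36 in RUNX3KO. Those most like ALDH1A1 were TNFRSF19, OAS3 and COL5A3, with differences of 0.257, 0.260 and 0.286. TNFRSF19 had 64 and 70 counts in wt and 176 and 210 in RUNX3KO. The measure compares level and change together over 4 libraries of 2 genotypes.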
